A study of Rattus norvegicus with 4 samples.

Results

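The MHC class II genes described here are 8 of the 32623 features in a set of 4 single-cell RNA-seq libraries of rat esophagus. They are Cd74, RT1-Da, RT1-Db1, RT1-Ba, RT1-Bb, RT1-DMa, RT1-DMb and Ciita, and were taken by symbol, with 1 feature found for each. The study gave X-rays to the esophageal region of male Sprague-Dawley rats aged 6 weeks, and sequenced 1 pool of 5 rats in each of 4 groups. The 35Gy_7d group received 1 dose of 35 Gy and was collected on day 7. The 5x7Gy_7d and 5x7Gy_14d groups received 5 daily doses of 7 Gy and were collected on days 7 and 14. The 0Gy_7d control group received 5 sham fractions of 0 Gy and was collected on day 7. All pools were digested with enzymes and passed through a removal step for dead cells, so cells lost in those steps are missing from every group. With 1 library per group there is no replicate check and no test, and every interval given is a 95% interval that covers counting error only. Differences between rats and between preparations are not in these intervals.

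MHC class II molecules are pairs of an alpha and a beta chain that carry peptides from engulfed proteins to the cell surface, where CD4+ T cells read them. Cd74, the invariant chain, holds the groove of a new class II molecule closed on its way to the endosome, and the DM molecule then helps load peptide. In the rat, RT1-D and RT1-B are the classical class II molecules. Their genes are transcribed under the coactivator Ciita in macrophages, dendritic cells and B cells, and interferon-gamma can induce them in other cells.

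The promoters of class II genes are known for an X box and a downstream Y box, to which RFX and NF-Y bind and on which Ciita acts. The RefSeq promoter table of build GRCr8 covers 250 bases before to 50 after each gene's start and held 6 of the 8 genes, without Ciita and RT1-DMb. The stretches below show where this arrangement can be read in the genes whose levels are compared further on. Capitals mark the word GCAAC, a core of the X box, and the word TGATTGG, which holds the inverted CCAAT of the Y box, both read on the gene's own strand.
Cd74, chr18:56527126-56527187, plus strand: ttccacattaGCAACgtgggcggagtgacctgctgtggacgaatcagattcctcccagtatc
RT1-Da, chr20:4515323-4515382, plus strand: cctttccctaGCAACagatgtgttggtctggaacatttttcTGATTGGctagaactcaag
RT1-Db1, chr20:4560226-4560284, minus strand: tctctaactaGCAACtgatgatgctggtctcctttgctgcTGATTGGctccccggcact
RT1-Ba, chr20:4576971-4577030, plus strand: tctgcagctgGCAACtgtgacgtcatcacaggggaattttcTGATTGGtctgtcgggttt
RT1-Bb, chr20:4604163-4604221, minus strand: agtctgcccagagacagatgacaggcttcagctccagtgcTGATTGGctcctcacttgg
RT1-DMa, chr20:4712383-4712441, minus strand: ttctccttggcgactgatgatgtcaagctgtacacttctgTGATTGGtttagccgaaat
TGATTGG stood 51 bases before the start of RT1-Da, 82 before RT1-Db1, 45 before RT1-Ba, 63 before RT1-Bb and 66 before RT1-DMa. RT1-Da, RT1-Db1 and RT1-Ba held both words, 26, 25 and 26 bases apart. Over all 33469 promoters of the same length, TGATTGG was present in 7.06% on either strand and in 3.62% on the gene's strand. GCAAC was present in 35.1% on either strand and in 19.0% on the gene's strand, and GCAAC followed by TGATTGG within 50 bases in 64 promoters, 0.191%. A word match is a description of these windows and no measurement of binding.

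The deposited matrices held 11488 barcodes in the 35Gy_7d library, 10887 in 5x7Gy_7d, 10468 in 5x7Gy_14d and 12505 in 0Gy_7d, with 59805782 to 109618791 UMIs per library (unique molecular identifiers, which count captured transcripts). After the cell filters, 9330, 8639, 9107 and 11259 cells of the same libraries were kept, at medians of 5197 to 6319 UMIs. Barcodes above the mitochondrial limit made up 16.4% in 35Gy_7d, 18.8% in 5x7Gy_7d, 9.32% in 5x7Gy_14d and 6.40% in 0Gy_7d. Pairs of libraries shared 19 to 32 kept barcodes. Cells were gated by marker genes that include no class II gene. The labels call all of them esophageal cells. In the epithelial gate the median level of the epithelial marker list was 147 to 232 UMIs per 10000, against at most 5.22 for any other list, although the genes leading that gate by fold were mostly outside the list. In the macrophage and monocyte gate the median of its own list was 229 to 331, against at most 12.4 for any other.

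Over all kept cells, class II transcripts were more abundant in each irradiated library than in the control. The 8 genes together held 2435 CPM (counts per 1000000 UMIs) in 35Gy_7d, 1069.7 in 5x7Gy_7d, 2303 in 5x7Gy_14d and 523 in 0Gy_7d. The ratio to the control was 4.66 (4.61 to 4.71) in 35Gy_7d, 2.05 (2.02 to 2.07) in 5x7Gy_7d and 4.41 (4.36 to 4.45) in 5x7Gy_14d. Most of these UMIs lay in immune cells. The immune gates together held 95.6% of class II UMIs and 40.2% of the cells in 35Gy_7d, and 91.3% of the UMIs and 6.73% of the cells in 5x7Gy_7d. In 5x7Gy_14d they held 92.2% of the UMIs and 10.6% of the cells, and in 0Gy_7d 91.4% of the UMIs and 2.66% of the cells. Across the libraries the share of class II UMIs in immune cells was thus similar, while the share of immune cells among all cells differed.

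**Figure D1:**
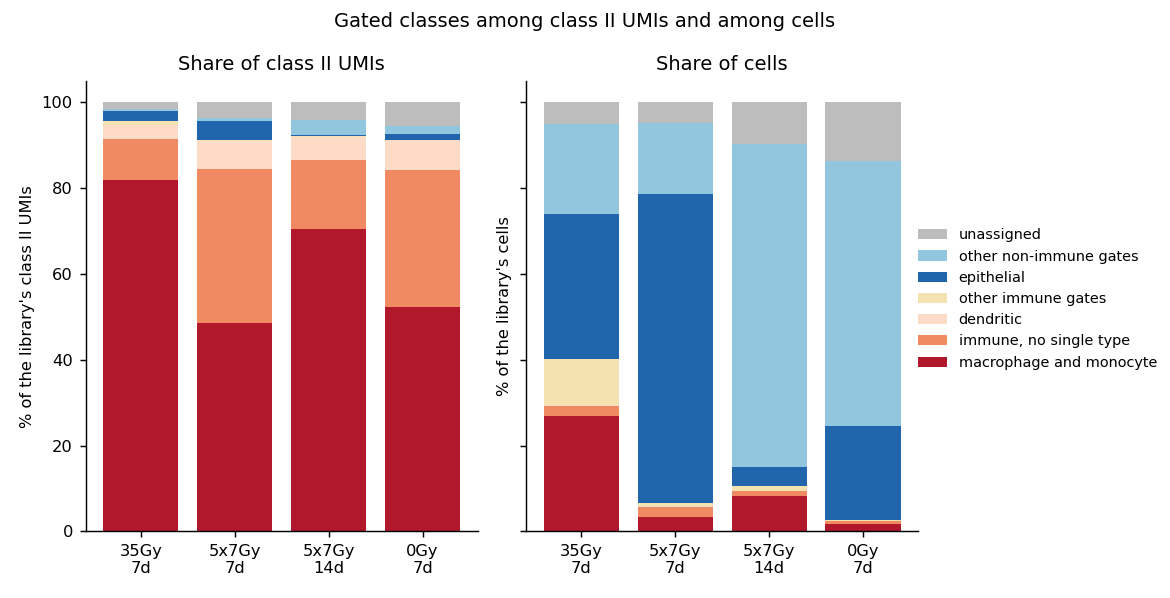
Share of each library's class II UMIs (percent) by marker gate, beside the share of its cells in the same gates, for the libraries 35Gy_7d, 5x7Gy_7d, 5x7Gy_14d and 0Gy_7d. Macrophage and monocyte cells hold 81.9%, 48.6%, 70.5% and 52.3% of the class II UMIs in that order, and 26.9%, 3.25%, 8.28% and 1.84% of the cells.

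Macrophages and monocytes were the largest holder in every library, followed by immune cells that the gates gave to no single type. The untyped immune cells held 9.56% of class II UMIs in 35Gy_7d, 35.9% in 5x7Gy_7d, 16.2% in 5x7Gy_14d and 31.9% in 0Gy_7d. Dendritic cells, the classical presenters to T cells, numbered 35, 22, 19 and 7 in the same libraries and held 3.25%, 6.58%, 5.32% and 7.02%. Epithelial cells held 2.38%, 4.34%, 0.213% and 1.32%. Cells left without a gate held 1.47%, 3.73%, 4.17% and 5.52%. On the CPM scale, dendritic cells had the highest level in each library: 33265 CPM in 35Gy_7d, 57829.6 in 5x7Gy_7d, 62725 in 5x7Gy_14d and 69995.5 in 0Gy_7d. With 7 to 35 cells, those levels rest on few cells.

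Within macrophages and monocytes, the class II level was lower in the single-dose library than in the control and higher in both fractionated libraries. The gate held 2511 cells in 35Gy_7d, 281 in 5x7Gy_7d, 754 in 5x7Gy_14d and 207 in 0Gy_7d, with class II levels of 15077.5, 49389, 32274.5 and 27705 CPM in that order. The level was 1.84-fold lower in 35Gy_7d than in 0Gy_7d (1.81 to 1.86). It was 1.78-fold higher in 5x7Gy_7d (1.75 to 1.81) and 1.16-fold higher in 5x7Gy_14d (1.15 to 1.18). With a gate that typed cells in a single step, the log2 ratio of 5x7Gy_7d over 0Gy_7d was 1.42, against 0.83 here. At day 7, the single dose stood 3.28-fold below the fractionated dose (3.24 to 3.32). Within the fractionated schedule, day 14 stood 1.53-fold below day 7 (1.51 to 1.55). The 35Gy_7d library, with the highest class II level over all cells, thus had the lowest level within this gate. The median depth of these cells was 4893 UMIs in 35Gy_7d, 2000 in 5x7Gy_7d, 4672 in 5x7Gy_14d and 3798 in 0Gy_7d.

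Among the members, Cd74 was the most abundant transcript in macrophages and monocytes. A 3' UMI counts a transcript once whatever its length, but levels of different RT1 genes also depend on how well their alleles and related copies map, which was not tested. Cd74 stood at 6172 CPM in 35Gy_7d, 19626 in 5x7Gy_7d, 12902 in 5x7Gy_14d and 11053 in 0Gy_7d. Both fractionated libraries lay above the control and the single-dose library below it, at ratios of 1.78 (1.73 to 1.82), 1.17 (1.14 to 1.19) and a 1.79-fold lower level (1.75 to 1.83). RT1-Da, the alpha chain of RT1-D, stood at 4165 CPM in 35Gy_7d, 11364 in 5x7Gy_7d, 6969 in 5x7Gy_14d and 5978 in 0Gy_7d. RT1-Db1, the beta chain of RT1-D, stood at 3101, 8729, 7986 and 5781.5 CPM in those libraries. Both RT1-D chains kept the same order of libraries as Cd74, with RT1-Db1 at day 14 closer to day 7, 1.09-fold below it (1.06 to 1.13), than Cd74, 1.52-fold below (1.49 to 1.55).

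RT1-Ba, the alpha chain of RT1-B, stood at 1355 CPM in 35Gy_7d, 5943 in 5x7Gy_7d, 3133 in 5x7Gy_14d and 2886 in 0Gy_7d. RT1-Bb, the beta chain of RT1-B, stood at 254 CPM in 35Gy_7d, 3612 in 5x7Gy_7d, 1260.4 in 5x7Gy_14d and 1992 in 0Gy_7d. Of the abundant members RT1-Bb differed most between libraries. It was 7.84-fold lower in 35Gy_7d than in 0Gy_7d (7.39 to 8.31) and 14.2-fold lower in 35Gy_7d than in 5x7Gy_7d (13.4 to 15.01). It was also 1.58-fold lower in 5x7Gy_14d than in 0Gy_7d (1.495 to 1.67), where the other 4 abundant members were higher. Sprague-Dawley rats are outbred and class II genes vary between animals. Whether the alleles of each pool map equally well to the reference was not tested, and this limits every ratio of RT1-Bb and of the other RT1 genes between libraries.

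**Figure D2:**
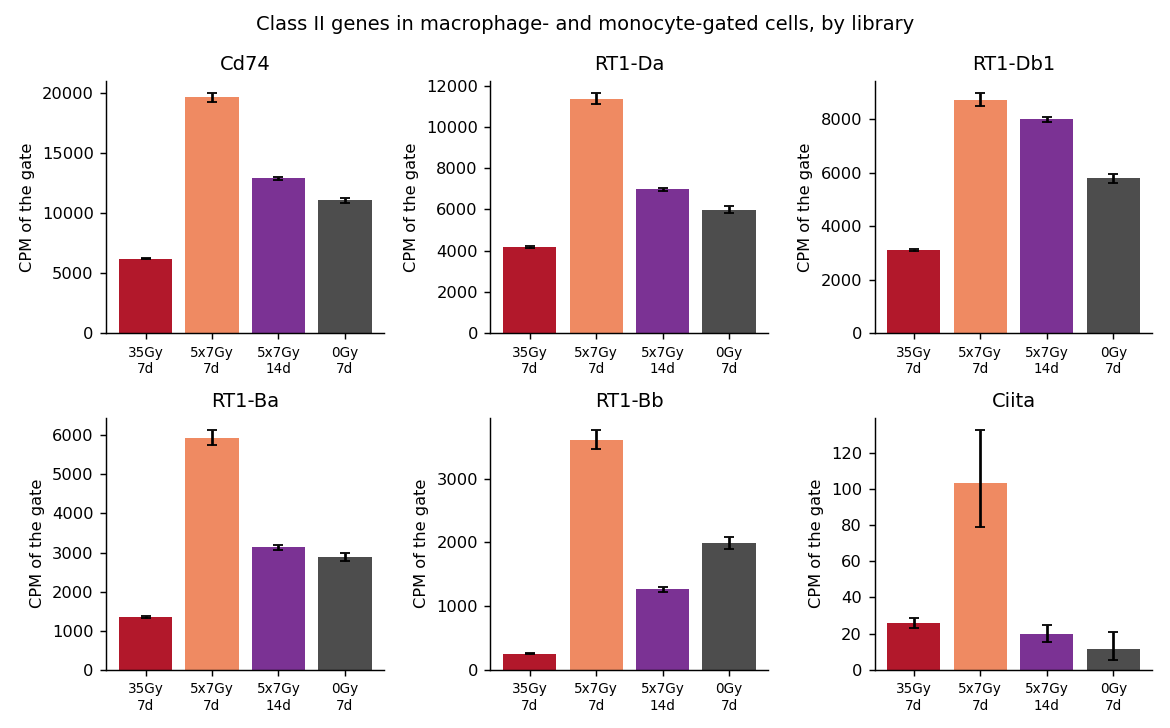
Bars give the level in macrophages and monocytes (CPM of the gate, each axis from 0) of Cd74, RT1-Da, RT1-Db1, RT1-Ba, RT1-Bb and Ciita in the libraries 35Gy_7d, 5x7Gy_7d, 5x7Gy_14d and 0Gy_7d, 1 pooled library each, with exact Poisson 95% intervals. The 5x7Gy_7d library is highest for all 6 genes, and RT1-Bb spreads most, at 254 CPM in 35Gy_7d and 3612 CPM in 5x7Gy_7d.

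The coactivator Ciita and both DM chains were found at far lower levels. Ciita gave 339 UMIs in macrophages and monocytes of 35Gy_7d, 60 in 5x7Gy_7d, 73 in 5x7Gy_14d and 10 in 0Gy_7d, or 25.8, 103, 19.7 and 11.4 CPM. It was above the control in all 3 irradiated libraries, at ratios of 2.27 (1.22 to 4.77), 9.05 (4.598 to 19.8) and 1.74 (0.89 to 3.77), and the last interval includes 1. In 35Gy_7d Ciita was therefore higher and the 5 abundant class II genes lower than in the control. RT1-DMb, the beta chain of the peptide loader DM, gave 50 UMIs in 35Gy_7d, 7 in 5x7Gy_7d, 16 in 5x7Gy_14d and 2 in 0Gy_7d in this gate. RT1-DMa, its alpha chain, gave 10 UMIs over all cells of all libraries: 6 in 35Gy_7d, 3 in 5x7Gy_7d, 1 in 5x7Gy_14d and 0 in 0Gy_7d. The 0 UMIs of RT1-DMa in 0Gy_7d allow a level of up to 0.034 CPM. No direction could be read for RT1-DMa on 10 UMIs, and the ratio of RT1-DMb in 35Gy_7d over 0Gy_7d had an interval of 0.44 to 14.2. Whether reads of the DM genes were fully counted in these features was not tested.

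The counts of members past 2-fold in macrophages and monocytes are given beside the same counts over all genes. A gene was counted where the pair of libraries held at least 20 of its UMIs in the gate, and called past a ratio of 2. For 35Gy_7d over 5x7Gy_7d, 7 of 7 such members were lower, against 17% of 9938 genes, with a median log2 ratio of -1.67 against -0.05 over all genes. RT1-DMa was the member left out there. For 35Gy_7d over 0Gy_7d, 2 of 7 members were lower (RT1-Ba and RT1-Bb), against 15.4% of 10030 genes, and 1 was higher (Ciita), against 14.3%. The median was -0.84 against 0.11. For 5x7Gy_7d over 0Gy_7d, 2 of 6 members were higher (RT1-Ba and Ciita), against 14% of 5695 genes, and 0 lower, against 17.2%, with a median of 0.89 against 0.01. For 5x7Gy_14d over 0Gy_7d, 0 of 6 members passed in either direction, against 7.93% of 8486 genes higher and 4.45% lower, with a median of 0.22 against -0.02. For 5x7Gy_14d over 5x7Gy_7d, 3 of 7 members were lower (RT1-Bb, RT1-DMb and Ciita), against 14.8% of 8394 genes, and 0 higher, against 17.2%, with a median of -0.92 against -0.06. The 3 comparisons with the control share that library, and the 5x7Gy_7d library enters 3 of the 5.

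The level per gate mixed cells with much and with little class II RNA. To compare shares at 1 depth, each cell was thinned to 1000 UMIs, which left out 13 cells of 35Gy_7d, 24 of 5x7Gy_7d and 0 of the other libraries. At least 5 class II UMIs were then found in 51.0% of macrophages and monocytes of 35Gy_7d (49.0 to 52.9%), 92.6% of 5x7Gy_7d (88.7 to 95.5%), 69.6% of 5x7Gy_14d (66.2 to 72.9%) and 48.8% of 0Gy_7d (41.8 to 55.8%). Without thinning these shares were 64.3%, 90.7%, 77.2% and 53.6%. The 35Gy_7d and 0Gy_7d libraries had overlapping shares, but the cells past 5 UMIs held a mean of 26.2 class II UMIs in 35Gy_7d against 49.7 in 0Gy_7d. That mean was 52.1 in 5x7Gy_7d and 43.2 in 5x7Gy_14d. The control gate was split: its median cell had 29.7 class II UMIs per 10000 and its 90th percentile 806. Cells with next to no class II RNA, in the lowest bin of the plot by cell, were 18.4% of the gate in 35Gy_7d, 6.41% in 5x7Gy_7d, 10.3% in 5x7Gy_14d and 40.6% in 0Gy_7d. These shares were not thinned, so they also depend on depth and on RNA free in the droplets, whose part was not tested. Cells under 10 class II UMIs held a mean of 1.68, 1.61, 1.73 and 0.539 of them in the same libraries. At least 10 were held by 58.5%, 89.0%, 74.0% and 50.7% of the cells. Only few cells lay at the limit of 5 thinned UMIs, with 128, 4, 24 and 6 cells at 4 or 5 in 35Gy_7d, 5x7Gy_7d, 5x7Gy_14d and 0Gy_7d.

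**Figure D3:**
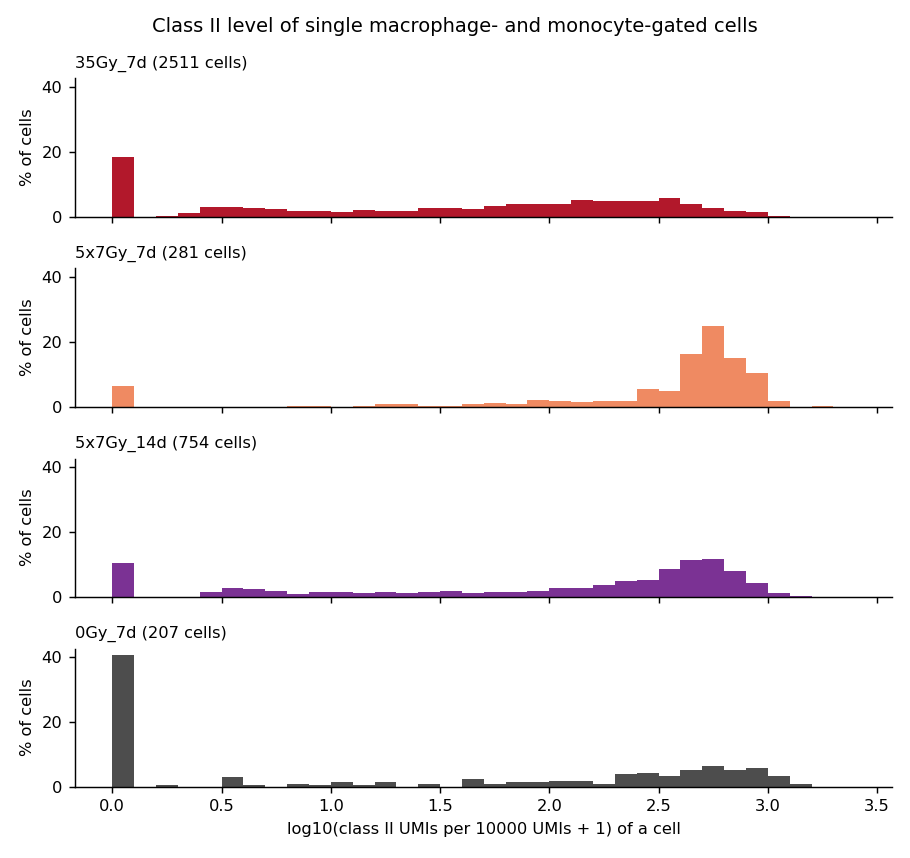
Percent of macrophage and monocyte cells by class II level, on an axis of log10(class II UMIs per 10000 + 1), for the libraries 35Gy_7d, 5x7Gy_7d, 5x7Gy_14d and 0Gy_7d from top to bottom. Median cells stand at 50.7, 512, 261 and 29.7 UMIs per 10000 in that order, and the 5x7Gy_7d cells lie mostly at the high end.

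Which cells had little class II RNA differed between libraries. In 35Gy_7d, the 1043 cells under 10 class II UMIs had 9959.8 CPM of the monocyte list (Plac8, Ccr2, Vcan and others), against 5534 in the 1468 cells with 10 or more. In 5x7Gy_7d, the 31 cells under 10 had 9486 CPM of that list, against 981 in the 250 others. In 5x7Gy_14d, the 196 low cells had more of both lists than the 558 high cells: 741 against 201 CPM of the monocyte list, and 28886 against 17212 CPM of the resident macrophage list (C1qa, Cd163, Mrc1 and others). In 0Gy_7d the resident list stood at 23201 CPM in 102 low cells against 9014 in 105 high cells, and the monocyte list at 581 against 446 CPM. The monocyte list was thus higher in the low cells of all 4 libraries. The resident list was lower in the low cells of both irradiated day 7 libraries, at 2394 against 5479.6 CPM in 35Gy_7d and 2359 against 9776 CPM in 5x7Gy_7d, and higher in those of 5x7Gy_14d and 0Gy_7d.

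The make-up of the gate differed between libraries as well, and its part in the class II levels was not tested. Cells whose resident list exceeded the monocyte list by 2 times or more were 13.5% of the gate in 35Gy_7d, 60.1% in 5x7Gy_7d, 90.1% in 5x7Gy_14d and 87.4% in 0Gy_7d. In these 338, 169, 679 and 181 resident-leaning cells the class II level was 27666, 55430.3, 31318 and 24903 CPM. The 35Gy_7d level was then 1.11-fold above that of 0Gy_7d (1.09 to 1.13), where the whole gate had been 1.84-fold below. By cell the difference was larger: the median resident-leaning cell had 227 class II UMIs per 10000 in 35Gy_7d against 17.7 in 0Gy_7d, and 87.3% against 49.2% of these cells held at least 10 class II UMIs, at median depths of 6693.5 and 3762 UMIs. The 5x7Gy_7d level was 2.23-fold (2.18 to 2.27) and the 5x7Gy_14d level 1.26-fold (1.24 to 1.28) above 0Gy_7d. Monocyte-leaning cells had 10594 CPM in 1862 cells of 35Gy_7d, 31874 in 72 cells of 5x7Gy_7d, 19020.3 in 39 cells of 5x7Gy_14d and 2735 in 9 cells of 0Gy_7d. They were 3.01-fold lower in 35Gy_7d than in 5x7Gy_7d (2.92 to 3.10), and fewer than 50 in 5x7Gy_14d and 0Gy_7d. Cells leaning to neither list had 19858 CPM in 311 cells of 35Gy_7d and 60623 in 17 cells of 0Gy_7d. In the fractionated libraries they had 54867 CPM in 40 cells of 5x7Gy_7d and 58832 in 36 cells of 5x7Gy_14d. The 17 cells of 0Gy_7d held 5487 of the 24353 class II UMIs of its gate. These classes are ranges of a score, and 76, 4, 8 and 4 resident-leaning cells of the libraries lay near the limit.

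The summed markers of dendritic cells stood at levels of the same order in the macrophage and monocyte gate of each library, while single markers differed. The dendritic list summed to 616 CPM in 35Gy_7d, 591 in 5x7Gy_7d, 951 in 5x7Gy_14d and 691 in 0Gy_7d. Most of it was Clec10a, which macrophages also express, with 7457 of the 8101 UMIs in 35Gy_7d and 555 of 607 in 0Gy_7d. Flt3, the growth factor receptor of dendritic cells, gave 25, 6, 21 and 0 UMIs in the gate, Cd207 17, 20, 26 and 0, Xcr1 2, 0, 0 and 0, and Ccr7 0 in all 4. In cells of the gate with at least 10 class II UMIs, Flt3 stood at 2.97, 11.1, 7.30 and 0 CPM. Cd207 stood there at 2.02, 36.9, 9.04 and 0 CPM, and Irf8 at 35.2, 72.0, 65.4 and 24.6. Cd207 was highest in 5x7Gy_7d (22.6 to 57.0), clear of the intervals of the other libraries. Flt3, on 6 UMIs, and Irf8 also had their highest values there, but with intervals that overlapped those of 5x7Gy_14d. Ccl17 stood at 10.1, 16.6, 19.8 and 6.14 CPM, with overlapping intervals in both fractionated libraries. The part of dendritic cells in the class II levels of the gate was not tested.

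Within resident-leaning cells, Cd74, RT1-Da and RT1-Db1 were above the control in 35Gy_7d, at ratios of 1.13 (1.10 to 1.16), 1.34 (1.30 to 1.39) and 1.246 (1.20 to 1.29), where the whole gate had them below. RT1-Ba was 1.08-fold below the control there (1.02 to 1.13). RT1-Bb and Ciita kept the directions of the whole gate. RT1-Bb was 4.30-fold lower in 35Gy_7d than in 0Gy_7d (3.97 to 4.65), 2.13-fold higher in 5x7Gy_7d and 1.52-fold lower in 5x7Gy_14d. Ciita was 3.02-fold higher in 35Gy_7d (1.46 to 7.25) and 10.9-fold higher in 5x7Gy_7d (5.05 to 27.1) than in 0Gy_7d.

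The ratio between the chains of RT1-B differed between libraries. Within a library it was similar in macrophages and in untyped immune cells, but not in every gate. RT1-Bb per 100 RT1-Ba UMIs was 18.6 over all cells of 35Gy_7d (18.0 to 19.3), 56.6 in 5x7Gy_7d (54.5 to 58.7), 40.6 in 5x7Gy_14d (39.5 to 41.7) and 67.2 in 0Gy_7d (64.3 to 70.3). In macrophages and monocytes it was 18.8, 60.8, 40.2 and 69.0 in the same libraries, and in immune cells of no single type 20.04, 50.9, 43.2 and 62.6. Dendritic cells gave 11.8, 56.0, 35.3 and 113. The 35Gy_7d library was lowest in each of these gates. RT1-Db1 per 100 RT1-Da UMIs ordered the libraries differently, with 76.1 in 35Gy_7d, 77.9 in 5x7Gy_7d, 114 in 5x7Gy_14d and 96.5 in 0Gy_7d over all cells, and 74.4, 76.8, 115 and 96.7 in macrophages and monocytes. Cd74 took 41.1%, 38.6%, 38.9% and 38.7% of all class II UMIs, so its share varied little. Ciita per 1000 Cd74 UMIs was 4.10 in 35Gy_7d, 5.39 in 5x7Gy_7d, 1.55 in 5x7Gy_14d and 1.39 in 0Gy_7d. Class II genes have related copies between which reads could be split, such as RT1-Db1 and RT1-Db2, and RT1-Db2 held 17 UMIs in all. The part of alleles that differ between the pools in these ratios was not tested either.

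**Figure D4:**
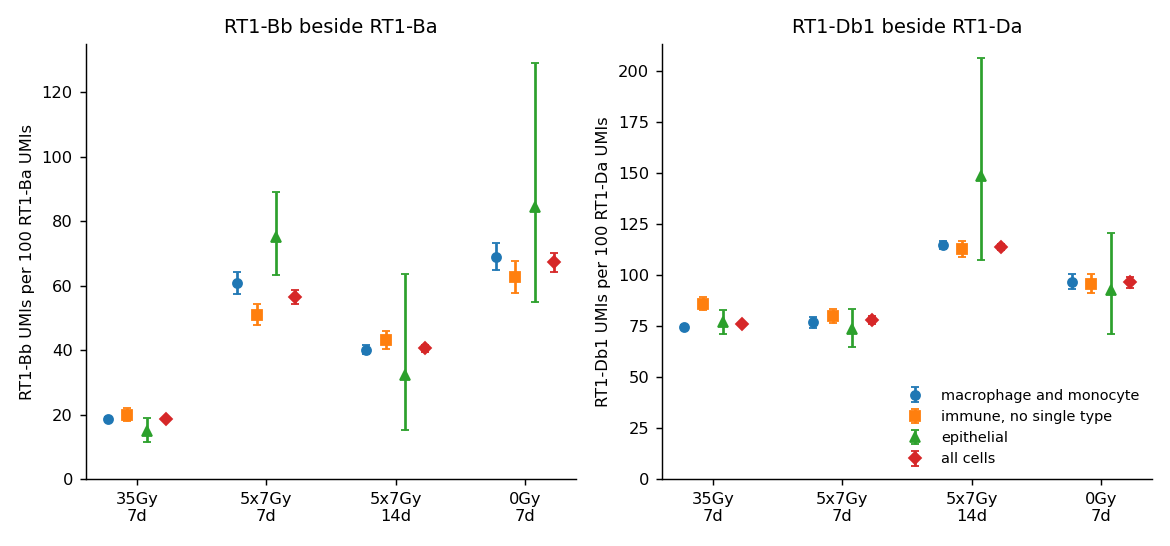
RT1-Bb per 100 RT1-Ba UMIs and RT1-Db1 per 100 RT1-Da UMIs by library (35Gy_7d, 5x7Gy_7d, 5x7Gy_14d, 0Gy_7d) and gate (macrophage and monocyte, immune of no single type, epithelial, all cells), with exact 95% intervals for counting error. For RT1-Bb the points lie near 18.6 in 35Gy_7d and 67.2 in 0Gy_7d over all cells.

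Immune cells of no single type carried class II at levels of the same order as macrophages. They numbered 214 in 35Gy_7d, 216 in 5x7Gy_7d, 94 in 5x7Gy_14d and 61 in 0Gy_7d, with 21638, 45398, 56616 and 51638 CPM. The 35Gy_7d level was 2.39-fold below 0Gy_7d (2.34 to 2.44), the 5x7Gy_7d level 1.14-fold below (1.11 to 1.16) and the 5x7Gy_14d level 1.10-fold above (1.07 to 1.12). In 35Gy_7d over 0Gy_7d, 5 of 6 members were past 2-fold lower, against 8.26% of 5699 genes, and 0 higher, against 20.4%. Ciita stood at 30.9, 94.0, 29.0 and 34.7 CPM, highest in 5x7Gy_7d as in macrophages. The genes leading these cells differed by library: Siglech, Flt3 and Ighm in 35Gy_7d, Fcrla and Ighm in 5x7Gy_7d, Ccl17 in 5x7Gy_14d, and Cd207 and Cd52 in 0Gy_7d. They are a mixture of unlike make-up, and were given no cell type name.

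Epithelial cells showed low class II counts that were higher in all 3 irradiated libraries. The level was 82.0 CPM in 3164 cells of 35Gy_7d, 51.3 in 6212 cells of 5x7Gy_7d, 61.8 in 411 cells of 5x7Gy_14d and 14.5 in 2466 cells of 0Gy_7d. Ratios to the control were 5.65 (5.20 to 6.15), 3.54 (3.24 to 3.87) and 4.25 (3.72 to 4.85). Cd74 stood at 36.0 CPM in 35Gy_7d, 19.99 in 5x7Gy_7d, 25.3 in 5x7Gy_14d and 6.68 in 0Gy_7d, and RT1-Da at 21.5, 11.5, 11.3 and 2.89. RT1-Bb stood at 1.01, 4.82, 2.05 and 1.02 CPM in those libraries, with ratios to the control of 0.99 (0.67 to 1.49) in 35Gy_7d, 4.73 (3.408 to 6.70) in 5x7Gy_7d and 2.02 (0.97 to 3.89) in 5x7Gy_14d. In 35Gy_7d over 0Gy_7d, 4 of the 5 members with enough UMIs were past 2-fold higher, against 9.74% of 13074 genes. In 5x7Gy_7d over 0Gy_7d it was 5 of 5, against 11.3% of 12747 genes, and in 5x7Gy_14d over 0Gy_7d 5 of 5, against 8.42% of 11922. Of these 5, RT1-Bb in 5x7Gy_14d had an interval that includes 1, and its log2 ratio of 1.01 became -1.03 with the single-step gate. None was past 2-fold lower, against 10.7%, 12.5% and 5.45%. Ciita gave 11, 9, 0 and 2 UMIs in these cells, RT1-DMb 1, 0, 0 and 0, and RT1-DMa 0 in all 4, so these 3 members had too few UMIs for a ratio to the control. With the single-step gate the log2 ratios of the class II sum were 1.03 in 35Gy_7d, 0.76 in 5x7Gy_7d and 0.23 in 5x7Gy_14d, against 2.50, 1.82 and 2.09 here, and without cells holding immune genes that of 5x7Gy_7d was 1.23.

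Free RNA in the droplets gives UMIs in cells that do not express a gene, and several measurements bear on it. Few epithelial cells held many class II UMIs. Cells with at least 10 numbered 29 in 35Gy_7d, 17 in 5x7Gy_7d, 3 in 5x7Gy_14d and 4 in 0Gy_7d, and held 29.0%, 43.8%, 20.8% and 17.5% of the gate's class II UMIs. A UMI of the pan-immune list was found in 29, 15, 3 and 4 of them. Their median of pan-immune UMIs was 8, 6, 4 and 3, against 1, 0, 0 and 0 in the other epithelial cells. Csf1r, the receptor of the macrophage growth factor CSF1, was found in 17, 5, 0 and 1 of them, and Cd207, a Langerhans cell gene, in 0. Their epithelial marker level, at medians of 168, 164, 207 and 257 per 10000, was close to that of the other epithelial cells, at 147, 202, 219 and 232.

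The class II level of the remaining epithelial cells, those under 10 class II UMIs, was 58.8 CPM in 35Gy_7d, 29.0 in 5x7Gy_7d, 49.2 in 5x7Gy_14d and 12.004 in 0Gy_7d. Cells under 10 class II UMIs in the other non-immune gates of at least 50 cells ranged up to 127, 57.6, 101 and 26.9 CPM. This limit is on the measure itself and removes deep epithelial cells at a lower relative level than shallow cells of other gates, so the order of gates under it is only a description. From low to high, epithelial cells ranked 1 of 7 gates in 35Gy_7d, 2 of 4 in 5x7Gy_7d, 2 of 7 in 5x7Gy_14d and 1 of 7 in 0Gy_7d. Under this limit the epithelial level was 2.41%, 2.71%, 2.14% and 2.30% of the library's class II level over all cells, which had no such limit. The removed epithelial cells held 29.0%, 43.8%, 20.8% and 17.5% of the gate's class II UMIs. Without the limit the shares are therefore higher and less alike. Without the limit, epithelial cells of 5x7Gy_7d, at 51.3 CPM, stood above fibroblasts at 24.5 and mural cells at 42.8 and below blood endothelium at 113. In cells under 10 class II UMIs, the ratio of 35Gy_7d over 0Gy_7d was 4.90 in epithelium (4.46 to 5.38), 4.64 in fibroblasts (4.03 to 5.33), 5.93 in blood endothelium (4.601 to 7.74), 6.40 in lymphatic endothelium (3.93 to 10.7) and 5.32 in mural cells (3.58 to 8.16). In 5x7Gy_7d over 0Gy_7d it was 2.41 in epithelium (2.18 to 2.68), 1.39 in fibroblasts (0.51 to 3.05), 3.73 in blood endothelium (2.79 to 5.03) and 3.16 in mural cells (1.81 to 5.497). In 5x7Gy_14d over 0Gy_7d it was 4.10 in epithelium (3.54 to 4.75), 3.20 in fibroblasts (2.90 to 3.53), 5.10 in blood endothelium (4.01 to 6.56) and 6.27 in mural cells (4.32 to 9.42).

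**Figure D5:**
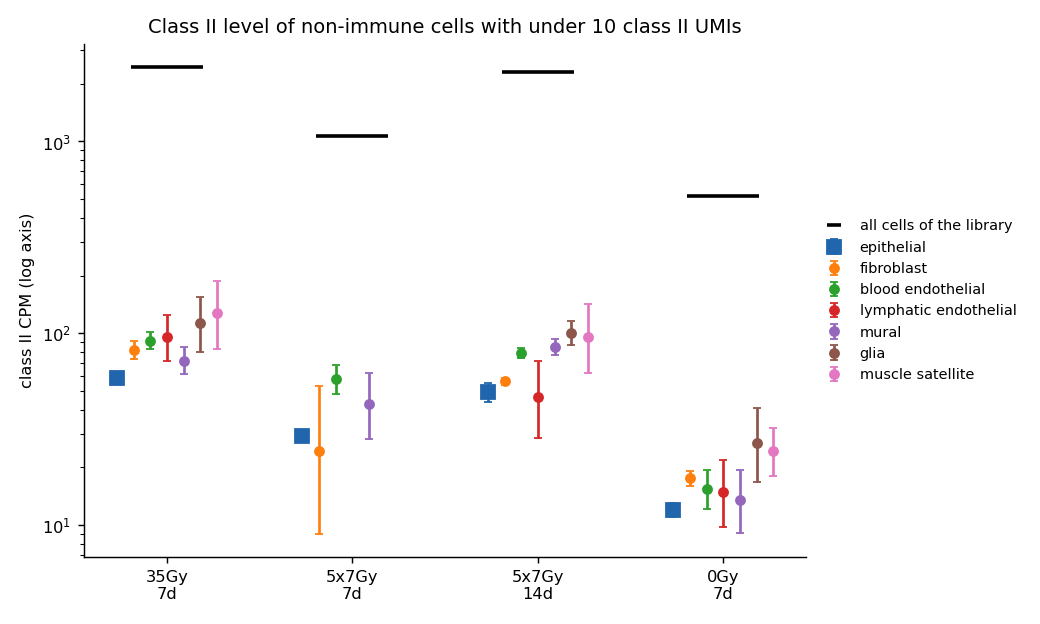
Class II level (CPM, log axis) in cells under 10 class II UMIs of each non-immune gate, by library (35Gy_7d, 5x7Gy_7d, 5x7Gy_14d, 0Gy_7d), with exact Poisson 95% intervals and black bars for the level over all cells of the library. Epithelial cells stand at 58.8, 29.0, 49.2 and 12.004 CPM in that order.

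The chain ratio in epithelial cells ordered the libraries as it did in macrophages. RT1-Bb per 100 RT1-Ba was 14.9 in 35Gy_7d (11.5 to 19.2), 75.1 in 5x7Gy_7d (63.3 to 89.0), 32.4 in 5x7Gy_14d (15.4 to 63.6) and 84.3 in 0Gy_7d (54.9 to 129). Each interval apart from that of 5x7Gy_7d includes the value of the library's macrophages. Thinned to 1000 UMIs, 7.21% of epithelial cells in 35Gy_7d, 3.36% in 5x7Gy_7d, 6.77% in 5x7Gy_14d and 1.44% in 0Gy_7d had a class II UMI. In fibroblasts these shares were 10.0%, 3.23%, 6.52% and 1.99%, and in blood endothelial cells 9.83%, 4.34%, 10.5% and 3.07%. Unthinned, 65.4%, 19.6%, 46.0% and 17.8% of epithelial cells had one, at median depths of 18730.0, 6803, 13636 and 15259 UMIs. The epithelial shares were thus below those of blood endothelial cells in each library, with overlapping intervals in each irradiated library. They were above those of fibroblasts in both fractionated libraries, and above the 6.25% of lymphatic endothelial cells in 5x7Gy_14d. The intervals overlapped in each of these comparisons, so no direction is read from them. The fibroblast share of 5x7Gy_7d rested on 2 of 62 cells and the lymphatic share on 4 of 64. Epithelial cells were deeper than cells of these gates, so thinning kept a smaller part of their UMIs. No epithelial expression is read from these shares, and whether epithelial cells express class II genes was not tested. The part of free RNA in the ratios to the control was not tested.

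Genes of the class II pathway outside the members differed in macrophages and monocytes in part. Of the antigen processing partners, 3 of 11 were past 2-fold higher in 35Gy_7d than in 0Gy_7d and 2 lower, against 14.3% and 15.4% of all genes. In 5x7Gy_7d it was also 3 higher and 2 lower of 11, against 14% and 17.2%. In 5x7Gy_14d it was 0 in either direction, against 7.93% and 4.45%. Ifi30, the lysosomal thiol reductase, stood at 1822 CPM in 35Gy_7d, 1454 in 5x7Gy_7d, 744 in 5x7Gy_14d and 567 in 0Gy_7d. Ctsd, an aspartic protease of the lysosome, stood at 657, 364, 241 and 138 CPM. RT1-DOa, a chain of the DM regulator DO, stood at 10.1 CPM in 35Gy_7d, 151 in 5x7Gy_7d, 45.7 in 5x7Gy_14d and 58.0 in 0Gy_7d, the same order of libraries as RT1-Bb. Of the list of RFX and NF-Y factors and Creb1, 0 of 6 measured genes in 35Gy_7d, 0 of 3 in 5x7Gy_7d and 0 of 6 in 5x7Gy_14d were past 2-fold from 0Gy_7d. Over all genes the shares were 14.3% higher and 15.4% lower in 35Gy_7d, 14% and 17.2% in 5x7Gy_7d, and 7.93% and 4.45% in 5x7Gy_14d. With 3 to 6 genes, a count of 0 is not read as a result.

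Genes induced by interferon-gamma did not share the order of the class II genes. Of that list, 5 of 9 were past 2-fold lower in 35Gy_7d than in 0Gy_7d, 3 of 4 in 5x7Gy_7d and 2 of 7 in 5x7Gy_14d, against 15.4%, 17.2% and 4.45% of all genes. Past 2-fold higher were 1 of 9 in 35Gy_7d and 0 in both fractionated libraries, against 14.3%, 14% and 7.93% of all genes. Cxcl10, a chemokine of that list, stood at 12.4 CPM in 35Gy_7d, 1.72 in 5x7Gy_7d (1 UMI), 452 in 5x7Gy_14d and 1411 in 0Gy_7d. Irf1, a transcription factor of the response, stood at 49.98, 32.6, 223 and 284 CPM, and Ifngr1, a receptor chain, at 466, 335, 175 and 125. Cd83, a maturation marker of antigen-presenting cells, stood at 15.4, 36.0, 1118 and 1746 CPM. Cxcl10, Irf1 and Cd83 were thus low in both irradiated day 7 libraries, whose class II levels were the lowest and the highest of the gate. B2m, the light chain of class I, stood at 3988, 4386, 4356 and 3904 CPM and differed little.

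The genes with the pattern most like the class II genes were higher in macrophages and monocytes than in epithelial cells and fibroblasts of each library. The likeness was Pearson's r of log2(CPM + 1) with the mean of 7 members over 37 units of a gate in a library, among 10320 genes with at least 1000 UMIs. Havcr2 (TIM-3), Pld4, Ly86, Clec4a1 and Tifab led with r of 0.965, 0.965, 0.963, 0.962 and 0.961. Cybb, a subunit of the phagocyte NADPH oxidase, followed at 0.955, then Slamf9 at 0.951, Ctss, the cathepsin that degrades the invariant chain, at 0.946, Cd68 at 0.943 and Ptpro at 0.942. Without the macrophage units, r of these 10 genes over 33 units was 0.918 to 0.961. Dendritic gates, with fewer than 50 cells each, formed no unit, so macrophage and dendritic expression were not told apart here. Gates of 1 library share its free RNA and preparation, so these units are not independent.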

How the data were processed

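Raw UMI counts per gene and barcode were used as the authors deposited them, 1 matrix per library. Per the submitters' processing notes they come from Cell Ranger 5.0.0, with the builds mRatBN7.2 and rn7 named. Per the labels, libraries were made with a 10x 3' kit from pools of 5 rats. Barcodes were kept with at least 500 UMIs, at least 200 genes and at most 20% mitochondrial UMIs (37 features). Scrublet in scanpy 1.11.5 removed 2.30 to 4.06% of the passing barcodes as doublets, against 7.07 to 9.36% expected from loading. Cells were gated on scaled marker sums: an immune gate from 8 pan-immune genes, then types, each with at least 3 markers and a lead of 1.5 times. No class II gene was a marker. UMIs were summed per gate and library and divided by the gate's total, giving CPM. Levels have exact Poisson intervals, ratios exact conditional binomial intervals and shares Clopper-Pearson intervals (scipy 1.17.1, 95%). Where a group is at 0, the limit is 3 counts. Cells and genes are not replicates, so no p-value is given. The ratio and call steps were tested on simulated data.

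The members and gene lists were chosen with earlier results of these data known. The rule for scoring the gates, the 10-UMI split, the resident and monocyte split, the minimum of 1000 UMIs for like genes and the promoter words were set after the data were seen. Named are all 8 members and, of each other list, up to 4 genes with at least 50 UMIs and the largest fold by the interval bound nearest 1. Other values of such genes, Irf1, Cxcl10, Cd83, Ifngr1 and RT1-DOa in further libraries, and B2m, were added after seeing the data. The alternatives tried were stricter cell filters and gates, doublets kept, Leiden clusters, size factors, equal weight per cell, cells with immune genes left out, another thinning depth, a higher gene minimum, a one-step gate and epithelial cells of at least 10 class II UMIs left out. Promoter sequences are from RefSeq, GRCr8; no coordinate was converted between builds.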

Additional observations from a re-analysis of the deposited data

Results flagged for a closer look

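The class II sum differed in direction between macrophages and epithelial cells under the same contrast, and the difference was not tested, with 1 library per group. For 35Gy_7d over 0Gy_7d the log2 ratio was -0.88 in macrophages and monocytes and 2.50 in epithelial cells. For 35Gy_7d over 5x7Gy_7d it was -1.71 in macrophages and monocytes and 0.68 in epithelial cells. The part of free RNA in the epithelial values is described by the measurements above.

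Barcodes above the mitochondrial limit, which enter no comparison, held class II UMIs above the level of the control. Their level was 1410.2 CPM in 1883 barcodes of 35Gy_7d, 689.7 in 2043 barcodes of 5x7Gy_7d and 2409 in 976 barcodes of 5x7Gy_14d, against 475 in 800 barcodes of 0Gy_7d.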

How the results depend on the processing

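No paired analysis was possible because each group is 1 pooled library. Of 51 alternatives for the class II ratios over 0Gy_7d, none changed the sign, 20 moved the value by less than its counting interval and 31 moved it by more. In macrophages and monocytes the log2 ratio of 35Gy_7d was -0.88. It was -1.11 with the stricter cell filter, -0.85 with the stricter gate, -1.06 with Leiden clusters, -1.002 with size factors, -0.83 with equal weight per cell and -0.31 with the one-step gate. The 5x7Gy_7d ratio of 0.83 became 0.60, 0.88 and 0.57 under the first 3, 0.99 with equal weight and 1.42 with the one-step gate. The 5x7Gy_14d ratio of 0.22 became 0.074, 0.28 and 0.052 under the first 3, 0.25 with size factors, 0.31 with equal weight and 0.62 with the one-step gate. In epithelial cells the 35Gy_7d ratio of 2.50 became 2.79 with doublets kept, 2.34 with size factors, 2.68 with equal weight, 2.18 without cells with immune genes, 1.03 with the one-step gate and 2.29 without cells of at least 10 class II UMIs. The 5x7Gy_7d ratio of 1.82 became 1.58 with the stricter gate, 1.65 with Leiden clusters, 1.44 with equal weight, 1.23 without cells with immune genes, 0.76 with the one-step gate and 1.27 without cells of at least 10 UMIs. The 5x7Gy_14d ratio of 2.09 became 1.71 with doublets kept and 0.23 with the one-step gate. The one-step gate and the removal of cells of at least 10 UMIs were chosen after seeing the data, and the cause of these moves was not tested. The one-step gate put 2168 class II UMIs of 0Gy_7d into the epithelial gate, against 613 in the two-step gate. Of 287 alternatives for single members, 278 kept the sign. The log2 ratio of RT1-Bb in epithelial cells for 5x7Gy_14d over 0Gy_7d was 1.01 and became -1.03 with the one-step gate.

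With at least 100 UMIs per gene, fewer genes were tested and counts past 2-fold were lower. In macrophages they were 679 lower (35Gy_7d over 0Gy_7d), 181 higher and 337 lower (5x7Gy_7d over 0Gy_7d), 122 higher and 75 lower (5x7Gy_14d over 0Gy_7d), 738 higher and 404 lower (5x7Gy_14d over 5x7Gy_7d) and 557 lower (35Gy_7d over 5x7Gy_7d). In epithelial cells they were 802 higher and 864 lower, 1004 lower, 363 higher and 398 lower, 1000 higher, and 671 lower for the same comparisons. Thinned to 2000 UMIs, the share of macrophages with at least 5 class II UMIs was 58.3% in 35Gy_7d, 97.2% in 5x7Gy_7d, 74.1% in 5x7Gy_14d and 53.5% in 0Gy_7d. The share of epithelial cells with a class II UMI was 11.4%, 5.75%, 10.9% and 2.64%. RT1-DMa, RT1-DMb and Ciita had the fewest UMIs of the members, so counting error limits them most. How well reads of these genes map to their features was not tested.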

Other observations

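T, NK and innate lymphoid cells had 1073 CPM in 134 cells of 35Gy_7d, 244 in 55 cells of 5x7Gy_7d and 171 in 84 cells of 5x7Gy_14d, against 3 UMIs in 20 cells of 0Gy_7d. In 35Gy_7d, 4 of these lymphoid cells held 76.6% of the UMIs, while no such cell of the fractionated libraries held 10 or more, and in 5x7Gy_14d a class II UMI was found in 36.9% of them. Neutrophils, present in number only in 35Gy_7d, had 745 CPM in 842 cells, and 4 cells held 63.9% of it. Cells gated as B and plasma cells had 12995 CPM in 12 cells of 35Gy_7d and 5366 in 4 cells of 5x7Gy_7d. They held 193 class II UMIs in 4 cells of 5x7Gy_14d. In 0Gy_7d the gate was 1 cell, with 42 class II UMIs of its 2594. With so few cells, no order of libraries is read.

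Of the class II genes outside the members, RT1-DOa held 904 UMIs in all, RT1-DOb 384 and RT1-Ha 86. The promoter windows of RT1-DOa, RT1-DOb, RT1-Ha and RT1-Db2 each held GCAAC followed by TGATTGG within 50 bases on the gene's strand, as did those of RT1-Da, RT1-Db1 and RT1-Ba.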
